A study of Mus musculus with 16 samples.

Results

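The 8 carbonic anhydrase genes Car1, Car2, Car3, Car4, Car8, Car9, Car12 and Car13 were read out in RNA-seq of sorted mouse colon epithelium. They were taken by name, as 8 of the 45513 genes in the gene count tables, and all 8 had enough counts to be among the 15841 genes tested. Carbonic anhydrases are zinc enzymes that convert carbon dioxide and water into bicarbonate and a proton, and back. In the colon this reaction feeds the exchangers that absorb sodium and chloride and the secretion of bicarbonate into the mucus. Members differ in where they work: Car1, Car2, Car3 and Car13 act in the cytosol, Car4 is held on the outer cell surface by a lipid anchor, Car9 and Car12 span the membrane with the catalytic domain outside, and Car8 is a relative that lacks the enzyme activity.

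The study sorted cells from the colon of 8 mice that carried Atoh1(WT)CreERT2, in which the tamoxifen-inducible recombinase CreERT2 lies downstream of the Atoh1 coding sequence, and the R26RtdTom reporter. Atoh1 is the transcription factor that specifies secretory cells, so tamoxifen switches on the red protein tdTomato in cells that use this gene. All 8 mice, tdTom+ and tdTom- samples alike, were homozygous for the first allele and heterozygous for the second. They received tamoxifen, 1 mg a day on 3 consecutive days. The labels give this dosing, and so do the methods for mice used to define the secretory signature, the comparison of tdTom+ with tdTom- cells. The general RNA sequencing passage of the methods gives a 3 mg injection 24 h before collection. The methods gave a C57BL/6 background, both sexes and an age of 8 to 16 weeks. Before the sort, per the methods, crypt-enriched fractions were pooled and a first, villus-enriched fraction was left out. Levels here are therefore those of a crypt-enriched preparation. Each mouse gave 1 library of live EpCAM+tdTom+ cells and 1 of live EpCAM+tdTom- cells, EpCAM being a surface protein of epithelial cells, so there were 8 libraries a group, paired by animal. The tdTom- sort is a mixture of whatever epithelial cells did not switch on the reporter, which limits it as a comparator.

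Libraries held 16482530 to 24218367 counts in tdTom+ samples and 18318172 to 45791503 in tdTom- samples, the highest being that of mouse 4. Levels are in CPM, counts per 1000000 of the library after TMM scaling. For Atoh1 the tdTom+ libraries averaged 132 CPM and the tdTom- libraries 5.70 CPM (log2 fold change 4.54, standard error (SE) 0.15, edgeR adjusted p = 1.14e-15). All 8 goblet cell markers were higher in tdTom+ cells, from Zg16 (3.56 on the log2 scale) to Spink4 (5.03), and all 8 absorptive cell markers were lower, from Fabp2 (-1.56) to Aqp8 (-5.18). All 8 enteroendocrine markers were lower as well (Gcg -0.84 to Tph1 -3.56), 7 of them with DESeq2. Of the tuft cell markers 5 of 7 tested were lower, 6 with mouse as a block in the fit (the highest was Pou2f3 at 0.05, no call), as were 4 of 7 tested stem and dividing cell markers, 6 with the block (Cdk1 -0.14, no call, to Ascl2 -0.79). Immune markers summed to 3.09 to 6.41 CPM in tdTom+ and 5.85 to 31.4 CPM in tdTom- libraries, with 2 of 3 tested lower (Cd68 -0.81, while Lyz2 at -2.11 did not pass but did with the block, at an adjusted p = 1.62e-06). Stromal and endothelial markers summed to 4.18 to 5.59 CPM and 6.18 to 8.31 CPM, and both tested were lower (Acta2 -0.41, Pecam1 -1.58). Red blood cells are rich in Car1 and Car2, and their 8 markers summed to 0.0598 to 0.976 CPM in tdTom+ and 0.522 to 1.05 CPM in tdTom- libraries, with too few counts for a test. What part immune, stromal, enteroendocrine or tuft cells had in the differences was not tested.

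Promoter sequence, given in the RefSeq table for Car4, Car9 and Car12 (3 of the 8 genes, build GRCm38.p6), is shown because Car4 had the greatest fall of the 8 and because Car9 and Car12 are textbook genes of the response to low oxygen. The 250 bases before each RefSeq start were searched on both strands for the hypoxia response core ACGTG and for the E-boxes CAGCTG and CAGATG, letters of the kind that factors such as Atoh1 bind. The hypoxia response core can lie inside a further E-box, CACGTG, and 16.6%, 13% and 14.4% of 32851 promoter windows of the same length held them. Of the 3 windows that of Car9 held a match, a single hypoxia response core outside any E-box, whose first base lies 18 bases before the RefSeq start, at chr4:43506996-43507025 on the plus strand, read here with the core, on the opposite strand, in capitals. The gene model used for the counts begins before that site, at 43506966, so the site lies within the span of that model. Windows of Car4 (chr11:84957504-84957753, plus strand) and Car12 (chr9:66713436-66713685, plus strand) held no match and are in lower case throughout.
Car9: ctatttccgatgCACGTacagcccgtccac
Car4: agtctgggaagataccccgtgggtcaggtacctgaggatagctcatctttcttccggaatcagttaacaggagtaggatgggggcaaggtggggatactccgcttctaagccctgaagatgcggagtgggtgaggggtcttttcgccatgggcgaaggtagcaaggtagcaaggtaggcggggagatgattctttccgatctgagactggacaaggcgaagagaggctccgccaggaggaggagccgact
Car12: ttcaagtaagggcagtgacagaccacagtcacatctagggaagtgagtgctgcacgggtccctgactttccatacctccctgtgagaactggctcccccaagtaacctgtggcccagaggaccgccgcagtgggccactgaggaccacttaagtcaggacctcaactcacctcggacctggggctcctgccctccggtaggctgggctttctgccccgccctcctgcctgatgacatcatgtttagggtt

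Most of the 8 genes were lower in tdTom+ cells. By edgeR at an adjusted p under 0.01, 6 of 8 were lower (Car1, Car2, Car4, Car9, Car12 and Car13), against 25.5% of all 15841 genes tested that were lower, 1 was higher (Car8), against 25.5% that were higher, and Car3 did not pass. With mouse as a block the counts were again 6 and 1, against 28.9% of all genes lower and 28.4% higher. Their median log2 fold change was -1.32, and that of all genes tested was 0.0039. For 6 of 8 genes every tdTom+ library was below every tdTom- library, against 15.3% of all genes, and for Car8 every tdTom+ library was above, against 15.2%. In bulk samples such as these, fewer cells that use a gene and less of its RNA in each cell cannot be told apart.

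**Figure D1:**
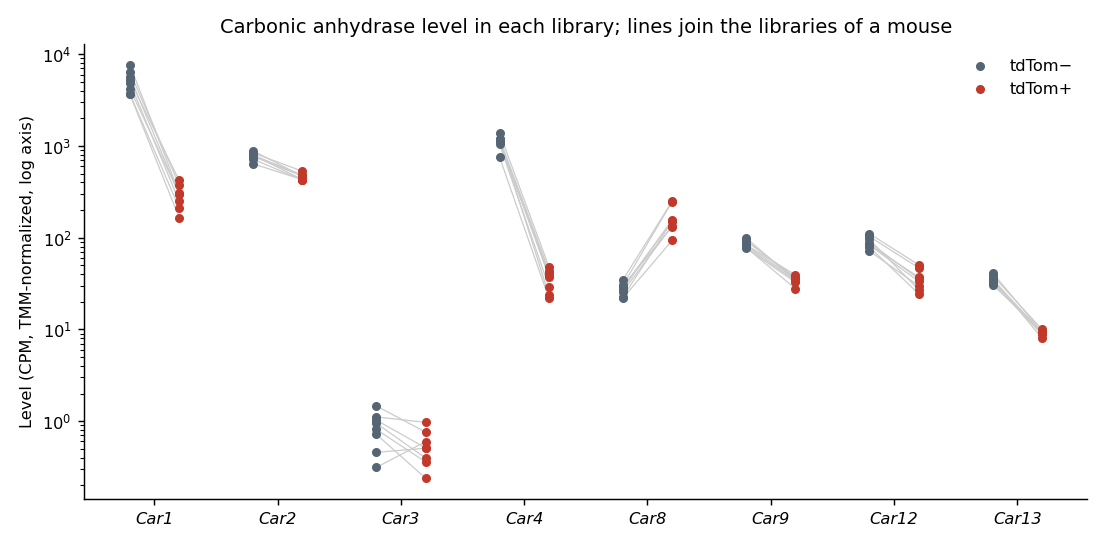
Level of each of the 8 genes in each of the 16 libraries (vertical axis, CPM after TMM normalization, log scale), grey for tdTom- and red for tdTom+, with a line joining the libraries of a mouse. The groups are apart for 7 genes, Car8 alone going up, and overlap for Car3, which lies near 1 CPM.

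Of the cytosolic enzymes, Car1, the isozyme that is abundant in colon absorptive cells, had the highest level per kilobase of gene length in tdTom- cells. Its lowest, median and highest level was 3669, 5089 and 7697 CPM in tdTom- libraries and 166, 298 and 422 CPM in tdTom+ libraries. Even the highest tdTom+ library was thus far below the lowest tdTom- library. The log2 fold change was -4.15 (SE 0.20, adjusted p = 3.38e-13), 17.8-fold lower in tdTom+ cells, and the mice ranged from -4.63 to -3.64. Per kilobase, Car1 ranked 12 among the genes tested in tdTom- cells and 236 in tdTom+ cells. Mouse 7 had the lowest Car1 of the 8 mice in both populations, at 3669 and 166 CPM.

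Car2, the fast and widespread cytosolic isozyme, moved far less. Its level ran from 639 over a median of 788 to 885 CPM in tdTom- cells and from 425 over 468 to 531 CPM in tdTom+ cells. The 2 groups came closer than for Car1 but did not overlap. The log2 fold change of -0.75 (SE 0.071, adjusted p = 1.03e-08) is 1.68-fold, and tdTom+ cells held 52.9% to 67.3% of the level of tdTom- cells of the same mouse. It ranked 151 per kilobase in tdTom- cells and 303 in tdTom+ cells, so that in tdTom+ cells it stood close to Car1.

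Car13, also a cytosolic enzyme, stood far below Car1 and Car2 in level. Per kilobase it ranked 4097 among the genes tested in tdTom- cells and 9428 in tdTom+ cells. In tdTom- libraries it ran from 30.8 over 34.5 to 41.4 CPM, and in tdTom+ libraries from 8.03 over 9.31 to 10.1 CPM. The groups were apart and the spread within each was small, with an SD of 3.42 and 0.594 CPM. It fell by 1.94 on the log2 scale (SE 0.068, adjusted p = 3.15e-15), or 3.83-fold, between the changes of Car1 and Car2.

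Car3, a slow cytosolic isozyme best known from muscle and fat, was near the limit of detection. It had 6 to 37 counts in tdTom- libraries and 5 to 15 in tdTom+ libraries, or 0.857 ± 0.368 and 0.542 ± 0.234 CPM (SD, n = 8). The groups overlapped, with Car3 lower in tdTom+ cells in 6 mice and higher in 2. The log2 fold change of -0.67 (SE 0.30) did not pass, at an adjusted p = 0.0552, nor with mouse as a block, at an adjusted p = 0.0231. Of 8 fat and striated muscle markers 4 had no count in any library, and of the 2 tested Cidec was lower (-4.43) and Acta1, at -0.45, did not pass but did with the block, at an adjusted p = 3.57e-06. The 8 markers summed to 19.0 to 51.4 CPM in tdTom+ and 31.8 to 90.4 CPM in tdTom- libraries. Acta1 alone averaged 32.0 and 43.8 CPM.

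Car4, the lipid-anchored surface enzyme of absorptive cells, had the steepest drop of the 8 genes. It ran from 755 over 1168 to 1385 CPM in tdTom- libraries and from 21.9 over 38.5 to 48.3 CPM in tdTom+ libraries. The groups were far apart in every mouse. The log2 fold change was -4.98 (SE 0.17, adjusted p = 2.50e-15), 31.6-fold lower, and the ratio in Car4 was below that in Car1 in all 8 mice, by 0.31 to 1.33 on the log2 scale. Its rank per kilobase was 71 in tdTom- cells and 3604 in tdTom+ cells. The low tdTom- value of 755 CPM came from mouse 4, whose tdTom+ value was also the lowest, and its ratio of -5.10 lay inside the range of the other mice.

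Car9 and Car12, the transmembrane enzymes, fell by a similar amount although they lie on different chromosomes. Car9 ran from 77.2 over 83.4 to 99.5 CPM in tdTom- libraries and from 27.8 over 34.9 to 39.3 CPM in tdTom+ libraries. Car12 ran from 71.7 over 86.2 to 111 CPM and from 24.5 over 34.6 to 50.7 CPM. For each, the groups did not overlap. The log2 fold change was -1.31 for Car9 (SE 0.070, adjusted p = 1.17e-12) and -1.32 for Car12 (SE 0.13, adjusted p = 1.82e-08), 2.49-fold and 2.51-fold. Car12 had the larger spread between mice, with ratios from -1.81 to -1.12 against -1.54 to -1.09 for Car9, and which was the lower of the pair differed by mouse (Car12 in 4 of 8).

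Car8, which lacks the enzyme activity and is known from the brain as a binding partner of the inositol trisphosphate receptor, went the other way. It ran from 21.9 over 28.1 to 34.7 CPM in tdTom- libraries and from 93.3 over 152 to 249 CPM in tdTom+ libraries. No tdTom- library reached the lowest tdTom+ library. The log2 fold change was 2.57 (SE 0.17, adjusted p = 3.74e-11), 5.95-fold higher, with mouse ratios from 2.09 to 3.03. The 2 highest tdTom+ values, 249 and 248 CPM, were those of mice 1 and 2. In tdTom- cells Car8 stood at 12.2% to 23.4% of the tdTom+ level of the same mouse, while the goblet cell genes Spink4 and Zg16 stood at 1.71% to 5.58% and 3.62% to 17.4% and Atoh1 at 3.10% to 7.26%.

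**Figure D2:**
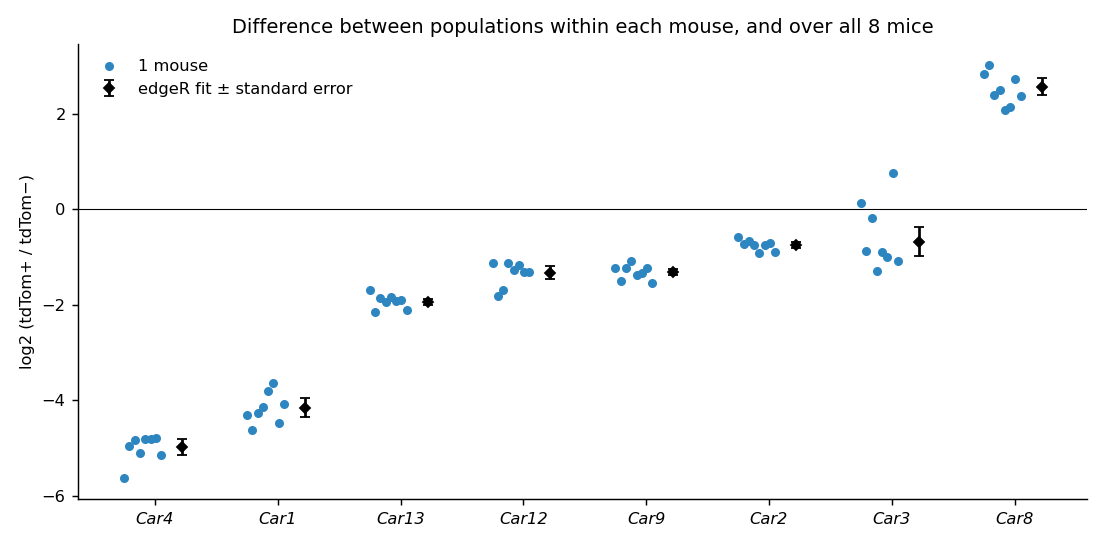
Log2 ratio of tdTom+ to tdTom- level in each mouse (blue points, mice 1 to 8 from left to right) and the edgeR log2 fold change with its standard error (black diamonds), ordered by size. Car4 and Car1 lie below -3.6 in every mouse, Car8 lies above 2 in every mouse, and only the Car3 points fall on both sides of 0.

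The animal numbers in the labels fall into 3 separate ranges, of mice 1 to 3, mouse 4 and mice 5 to 8, and the calls of the 7 genes were the same in the first range and the last. Mouse 4 alone allows no test. Within mice 1 to 3 and within mice 5 to 8 the log2 fold change was -4.42 and -3.95 for Car1, -5.09 and -4.88 for Car4, and 2.80 and 2.35 for Car8. The smallest change among the 7, that of Car2, was -0.65 (adjusted p = 0.00334) and -0.82.

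The level left in tdTom+ cells differed between genes, and what part of it came from tdTom- cells in the sort was not tested. Car4 in tdTom+ cells stood at 2.01% to 3.63% of the tdTom- level of the same mouse and Car1 at 4.03% to 8.02%. Absorptive cell markers themselves covered a wide range. The water channel Aqp8, the marker with the steepest fall, stood at 1.76% to 3.22%, and Fabp2, with the smallest, at 29.9% to 41.7%. Car13 stood at 22.3% to 30.9%, Car9 at 34.4% to 47.0% and Car12 at 28.4% to 45.8%, above both Car4 and Car1 in every mouse.

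To compare the genes with one another, CPM were divided by gene length in kilobases. The sum over the 8 genes was 5137 ± 1142 CPM per kilobase in tdTom- and 513 ± 59.6 in tdTom+ cells (SD, n = 8), and within a mouse it was 8.39 to 13.1 times higher in tdTom- cells. In tdTom- cells Car1 made up 80.4% ± 3.85 of that sum, Car4 11.5% ± 2.43 and Car2 6.53% ± 1.61. The make-up of tdTom+ cells was spread more evenly, with Car1 at 44.8% ± 8.28, Car2 at 37.8% ± 5.90, Car8 at 8.44% ± 3.00 and Car4 at 3.56% ± 1.03. Car1 and Car2 shares overlapped there, from 31.6% to 56.7% and from 29.5% to 47.3%, and so their order is not firm, and without the division by length Car2 came first at 45.0% and Car1 next at 27.9%. The same change moved Car8 to 15.8% and Car12 to 3.48% in tdTom+ cells. In tdTom- cells it moved Car8 to 0.385%, Car2 to 11.0%, Car3 to 0.0114%, Car9 to 1.21%, Car12 to 1.26% and Car13 to 0.496%. The remaining shares in tdTom+ and tdTom- cells were 2.97% and 0.757% for Car9, 1.57% and 0.401% for Car12, 0.792% and 0.311% for Car13, and 0.0371% and 0.0057% for Car3. Cytosolic enzymes together held 83.5% ± 3.25 in tdTom+ and 87.2% ± 2.56 in tdTom- cells, and the 3 surface enzymes 8.10% ± 1.28 and 12.6% ± 2.55. Car8 held the rest, with only 0.144% ± 0.030 in tdTom- cells. These shares describe the 8 genes and were not tested.

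**Figure D3:**
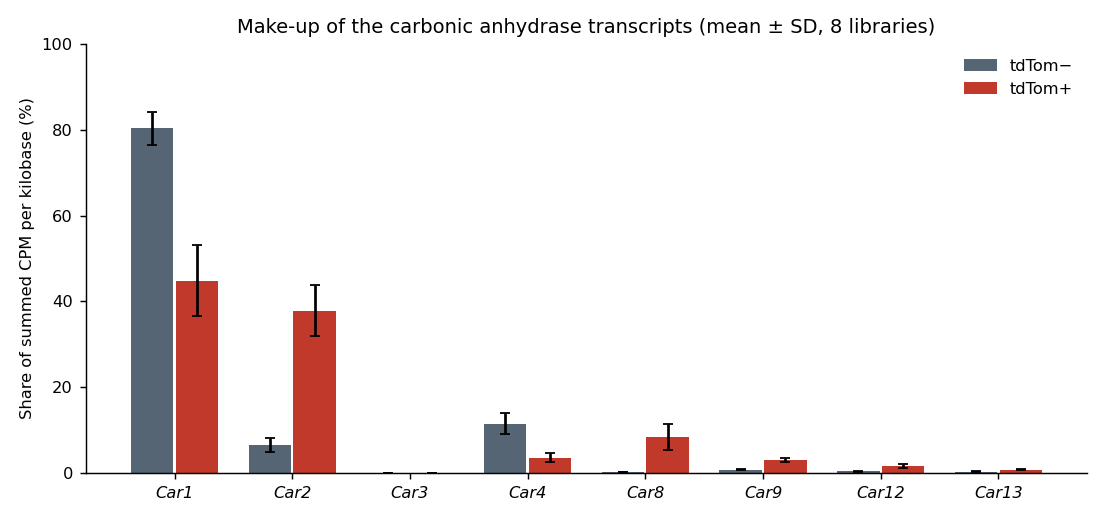
Share of each gene in the summed CPM per kilobase of the 8 genes (vertical axis, percent; bars are means and whiskers SD over 8 libraries), grey for tdTom- and red for tdTom+. Car1 holds 80.4% in tdTom- cells, whereas Car1 and Car2 are of similar size in tdTom+ cells at 44.8% and 37.8%.

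Of the 8 genes 4 lie in a cluster of 259 kb on chromosome 3 (build GRCm38), in the order Car13, Car1, Car3 and Car2. Car13 (ENSMUSG00000027555, chr3:14641727-14663002, plus strand) is followed after 103.2 kb by Car1 (ENSMUSG00000027556, chr3:14766216-14808368, minus strand), after another 55.1 kb by Car3 (ENSMUSG00000027559, chr3:14863512-14872523, plus strand) and after 13.8 kb by Car2 (ENSMUSG00000027562, chr3:14886273-14900770, plus strand). Neighbours did not move by the same amount: the ratio of Car1 was below that of Car2 in all 8 mice, by 2.89 to 3.92 on the log2 scale, and below that of Car13 by 1.72 to 2.62. Elsewhere lie Car4 (ENSMUSG00000000805, chr11:84957786-84966044, plus strand), Car8 (ENSMUSG00000041261, chr4:8143362-8239041, minus strand), Car9 (ENSMUSG00000028463, chr4:43506966-43513729, plus strand) and Car12 (ENSMUSG00000032373, chr9:66713686-66766845, plus strand).

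Between Car13 and Car1 lies Gm5843 (chr3:14722416-14729626), annotated as an unprocessed pseudogene. The tdTom- libraries had 403 ± 106 CPM and the tdTom+ libraries 22.8 ± 6.24 CPM of it (log2 fold change -4.14, SE 0.19, adjusted p = 8.57e-14). Of its 427 stretches of 50 bases, the read length, 167 (39.1%) are identical in Car1, and these are 13.4% of those of Car1, so that the counts of this pair are uncertain where reads could come from either. Gm5843 took 6.77% to 8.16% of the summed counts of the pair in the 16 libraries. Adding its counts to Car1 left the log2 fold change at -4.15. Car9 shares 117 stretches with the antisense gene Gm12454 on the opposite strand, which overlaps it, and the counting used strand. Gm12454 had a log2 fold change of 0.064 (adjusted p = 0.63).

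**Figure D4:**
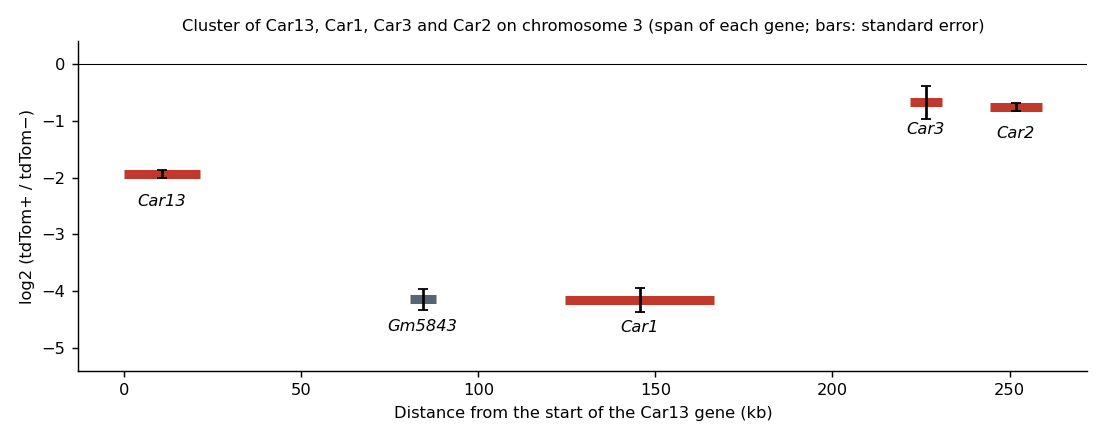
Span of the 4 carbonic anhydrase genes (red) and of the pseudogene Gm5843 (grey) along chromosome 3, as distance in kb from the start of Car13 (horizontal axis), at the height of their log2 fold change, with whiskers for the standard error. Car1 and Gm5843 lie lowest, at -4.15 and -4.14, and Car3 and Car2 lie nearest to 0.

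The genes nearest to each member over the 16 libraries were those with the smallest root mean square difference in log2 CPM after centring, among 15831 genes, and here they are given as a description. For Car1 they were Gm5843 (0.074) and Cyp2c55 (0.188), a cytochrome P450 of the colon. Because Gm5843 shares stretches of read length with Car1, reads of Car1 counted for it could give the same profile. For Car4 they were Aqp8 (0.184) and Ly6g (0.236), with log2 fold changes of -5.18 and -4.91. For Car13 they were Entpd5 (0.135) and Slc16a1 (0.147), the latter a lactate and butyrate transporter. Car2 was nearest to Dsp, a desmosome protein (0.101), and Ccni (0.103). Car9 was nearest to Frrs1 (0.114) and Gpd2, the mitochondrial glycerol phosphate dehydrogenase (0.115), and Car12 to Tgm2, a transglutaminase (0.150), and Igf2bp2, an RNA-binding protein (0.176). Car8 was nearest to Rgs17, a regulator of G protein signalling (0.247), and Selenom, a selenoprotein of the endoplasmic reticulum (0.257), both higher in tdTom+ cells at 2.43 and 2.32. Car3 had no close partner, the nearest being Gm6211 (0.368) and Serpinb6c (0.373).

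The rest of the family had few counts. Of 8 further members only Car5b, a mitochondrial enzyme, and Car11, a relative without enzyme activity, had enough counts, and both were higher in tdTom+ cells. Car5b averaged 1.58 against 0.725 CPM (log2 fold change 1.13, SE 0.20, adjusted p = 5.18e-05) and was higher in all 8 mice. Car11 averaged 2.68 against 1.41 CPM (0.91, SE 0.20, adjusted p = 4.80e-04), higher in 7 of 8 mice with overlapping groups. Car5a, Car6, Car7, Car10, Car14 and Car15 stayed at or below 22 counts in every library and were not tested.

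Genes of bicarbonate and proton transport move or regulate the ions that these enzymes make. Of 19 genes 16 were tested, of which 10 were lower and 2 higher, against 25.5% each of all genes tested, and 4 had no call, with a median log2 fold change of -1.08 against 0.0039 for all genes. With mouse as a block 10 were lower and 3 higher. The list includes a pair that carry no ions, the scaffold protein Slc9a3r1, which is among the 10 lower at -1.74, and the cyclase Adcy10, which was not tested. The lowest was Slc9a3 (-4.94, SE 0.25, adjusted p = 4.68e-13), the apical sodium and proton exchanger, and the highest Best2 (4.47, SE 0.25, adjusted p = 3.07e-12), a bicarbonate-permeable channel of colon goblet cells. The mean of Slc9a3 went from 127 CPM in tdTom- to 4.07 CPM in tdTom+ libraries and that of Best2 from 8.08 to 176 CPM. Named after their values were seen, the chloride and bicarbonate exchanger Slc26a3 fell by 4.45 on the log2 scale, the sodium and bicarbonate cotransporter Slc4a4 by 1.31 and the chloride channel Cftr by 1.07. Slc26a3 is also on the list of absorptive cell markers, so these lists share a gene. Slc4a7, likewise named after its value was seen and another sodium and bicarbonate cotransporter, was higher at 1.95, from 73.6 to 285 CPM.

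Genes of the response to low oxygen, to which Car9 belongs, were measured next. Of 12 tested 9 were lower and 2 higher, against 25.5% each of all genes tested, and 1 had no call, with a median log2 fold change of -0.72 against 0.0039 for all genes. With mouse as a block 9 were lower and 3 higher. The lowest was Adm, the peptide adrenomedullin (-2.74, SE 0.23, adjusted p = 1.16e-09), and the highest Ndrg1 (1.31, SE 0.11, adjusted p = 3.13e-09), which also responds to other signals. The other gene that was higher, named after its value was seen, was the collagen hydroxylase P4ha1 at 0.79. The 4 genes of position along the colon, from Hoxd13 (-0.19) to Hoxd12 (0.29), had no call by edgeR, DESeq2 or limma-voom and 0 at an unadjusted p under 0.05. With the block the lowest adjusted p were 0.0168 for Hoxb13 and 0.0279 for Hoxd13, which also did not pass.

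**Figure D5:**
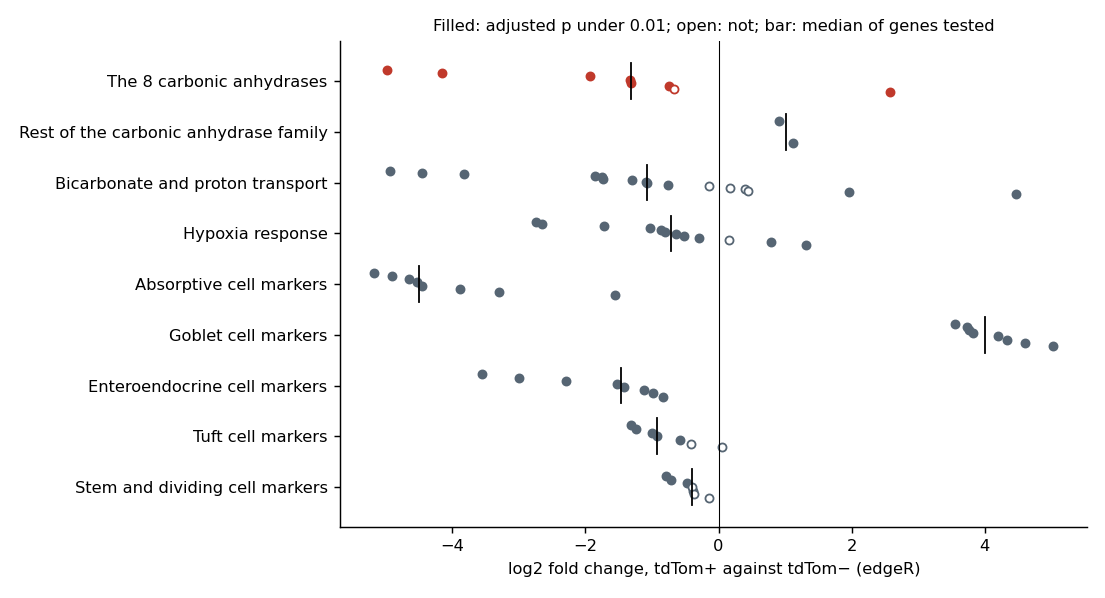
Log2 fold change of each tested gene (horizontal axis) in the 8 carbonic anhydrases (red) and in 8 other lists (grey), filled where the adjusted p was under 0.01 and open where not, with a bar at the median. Car1 and Car4 lie among the absorptive cell markers, which have a median of -4.50, and Car8 lies below the goblet cell markers, which start at 3.56.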

How the data were processed

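The sorted colon cells of 8 mice gave 16 stranded, poly(A)-selected libraries with single-end reads of 50 bases. Per the labels and file headers, the authors aligned them with TopHat2 2.1.1 to GRCm38.p3 and deposited raw read counts per gene made with featureCounts 1.5.0-p1 (the submitters' processing notes give Subread 1.5.2 and DESeq2 1.14.1), over exons, on the reverse strand, 1 table for each library. Only primary alignments were counted. The tables name genes by Ensembl identifier, and symbols for 44585 of 45513 came from GENCODE M21. From these counts, genes were filtered with filterByExpr and tested with edgeR 4.0.16 in R 4.3.3 (TMM scaling, quasi-likelihood test, group only, Benjamini-Hochberg adjusted p under 0.01 over all 15841 genes). CPM are TMM-normalized. The depth of each library, 16482530 counts or more, puts 3 counts at 0.182 CPM or less. SD cover the spread between mice. SE were derived from the group-only fit, as the absolute log2 fold change divided by the square root of the F statistic. That fit leaves out the pairing by mouse, and so SE are not the spread of the ratios within mice. With mouse as a block the SE was 0.104 for Car1, 0.093 for Car4 and 0.089 for Car8, against 0.204, 0.173 and 0.170 without it.

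The 2 populations of a mouse come from the same animal. Deviations from the group means correlated at 0.22 to 0.41 within a mouse and at -0.26 to 0.17 between mice. No 2 libraries of a group agreed within sampling noise. The test step was tested on simulated data, which were drawn without a mouse effect and so do not cover the pairing.

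Genes named were the 8 members, Atoh1, the highest and lowest log2 fold change of each list and the 2 nearest genes of each member (mean of at least 10 counts per library). Others are named as chosen after their values were seen. A gene that this rule names is not reported here. Members and lists were chosen with earlier results of these data known. Lists covered the rest of the family, bicarbonate and proton transport, low-oxygen genes, and markers of 8 cell types (absorptive, goblet, enteroendocrine, tuft, stem and dividing, red blood, immune, stromal and endothelial), of fat and muscle, and of colon position. Alternatives were mouse as a block, RLE and upper-quartile scaling, no filter, at least 10 counts in every library, DESeq2 1.42.0, limma-voom 3.58.1, each mouse left out, and mice 1 to 3 or 5 to 8 alone. Adding the counts of Gm5843 to Car1 was chosen after seeing the data.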

Additional observations from a re-analysis of the deposited data

Results flagged for a closer look

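Car4 in the tdTom- library of mouse 4 stood apart from the other 7 tdTom- libraries, at a log2 CPM of 9.56 against 10.02 to 10.44. It was the only one of 16 sets of 8 libraries (8 genes in 2 groups) with a library so far from the rest, where chance gives 0.8. That library was also the lowest of the 8 tdTom- libraries for the absorptive cell markers Aqp8 (322 CPM, median 650) and Fabp2 (204 CPM, median 273). The same held for Slc26a3, Alpi, Krt20, Mep1a and Ceacam20 but not for Slc51a, all named after their values were seen. Nor was this limited to absorptive markers. The library was also lowest for every enteroendocrine and every tested tuft cell marker. Of the goblet cell markers it was lowest for Muc2, Tff3, Agr2 and Spink4 but not for Zg16, Spdef, Fcgbp or Clca1. Of the stem and dividing cell markers it was highest for Mki67, Top2a and Smoc2 only. These too were named after their values were seen. Mouse 4 is alone in its range of animal numbers, and this library had the most counts, 45791503. Whether the depth of the library or its mixture of cells bears on the Car4 value was not tested.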

How the results depend on the processing

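Each of the 8 log2 fold changes kept its direction and its side of the threshold under every alternative that gave a value. Ranges were -4.42 to -3.95 for Car1, -5.09 to -4.88 for Car4 and 2.35 to 2.80 for Car8, and leaving out 1 mouse at a time gave -4.24 to -4.06, -5.01 to -4.90 and 2.49 to 2.64. Car3 lay between -0.81 and -0.44 with an adjusted p of 0.0231 to 0.466, and had no value where 10 counts were asked of every library. With mouse as a replicate block the log2 fold change was -4.17 for Car1, -5.01 for Car4 and 2.52 for Car8, and the calls of the 8 genes did not change. The block gave 4494 higher and 4574 lower genes in all, against 4032 and 4042 without it, and called 3 transport and 3 low-oxygen genes higher, against 2 and 2, with 6 tuft, 6 stem and dividing, 3 immune and 2 fat and muscle markers lower, against 5, 4, 2 and 1. DESeq2 called 7 enteroendocrine markers lower, against 8, and 6 tuft, 5 stem and dividing and 3 immune markers. With mice 1 to 3 alone, 2546 genes were higher and 2559 lower, 1 of the rest of the family was higher in place of 2, and 1 low-oxygen gene was higher in place of 2. With mice 5 to 8 alone, 1 of the rest of the family was higher. These subsets hold fewer samples. Without division by gene length the shares in tdTom+ cells became 27.9% for Car1, 45.0% for Car2, 15.8% for Car8 and 3.48% for Car12. In tdTom- cells they became 70.0% for Car1, 11.0% for Car2, 0.0114% for Car3, 15.6% for Car4, 0.385% for Car8, 1.21% for Car9, 1.26% for Car12 and 0.496% for Car13. The median of all genes moved by less than 0.1 on the log2 scale under each scaling. Depth limits Car3 and the untested members of the family.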
